A study of Sus scrofa with 20 samples.

Results

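The transporters that carry bile acids, conjugated bilirubin, phospholipid and sterols through the liver were compared between backfat and liver of the Nanchukmacdon pig, a Korean breed. The set was given as 10 gene symbols, grouped by function with earlier results of these data known: ABCB11, SLC10A1, SLC51A, SLC51B, ABCC2, ABCC3, ABCB4, ABCG5, ABCG8 and CFTR. Of these, 9 had an Ensembl identifier among the 31907 genes of the count table, and ABCB4 was not analysed here. Poly(A) RNA-seq was performed on 5 backfat and 5 liver libraries from 5 boars, all of which are labelled as WT (wild type), normal and 22 months old, while the study's methods give another average age. No animal was treated, and the groups differ in tissue alone. Both tissues were bulk samples, so each library holds the RNA of every cell type in it. Libraries are named here by tissue and by the boar number in the column names (65, 67, 69, 71 and 72), and which replicate number of the labels each name stands for is not known. Counts per library ranged from 43820042 to 61772737. Levels are given as CPM, which are counts scaled to the library's total and by TMM (trimmed mean of M-values, a scaling that sets most genes equal between libraries), and fold changes are liver over backfat.

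Bile is formed by transport across the hepatocyte, a cell with a sinusoidal (basolateral) face towards the blood and a canalicular face towards the bile. Bile acids are taken up from portal blood at the first face and pumped into the canaliculus at the second, with phospholipid, sterols and conjugated bilirubin sent out by exporters of their own, while a few basolateral exporters can return bile acids and conjugates to the blood. The duct cells (cholangiocytes) then add chloride, bicarbonate and water. Adipose tissue forms no bile and served as the tissue of comparison.

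The libraries carried the markers of their labelled tissue. All 10 hepatocyte markers tested were higher in liver and 6 of 7 adipocyte markers were higher in backfat (PCK1, a gluconeogenic enzyme of liver too, was higher in liver), where ADIPOQ, the adipocyte hormone adiponectin, had 3608 ± 1100 CPM (SD, n = 5) against 0.0344 ± 0.0316 CPM in liver. Endothelial markers summed to 795 to 1498 CPM of all counts in backfat and 104 to 158 CPM in liver, and macrophage markers to 373 to 769 CPM and 538 to 815 CPM. A pair of libraries stood apart. In liver 67 the 13 protein-coding mitochondrial genes took 44.5% of counts, against 6.38% to 20.2% in the other livers. With TMM, its hepatocyte markers summed to 0.283 times the mean of the other 4 livers. In backfat 69 the hepatocyte markers summed to 780 CPM of all counts, against 215 to 312 CPM in the other backfat libraries. Most of the sum in backfat was APOA1, with 28654 counts in backfat 69 against 9614 to 17260. ALB (albumin) had 2162 counts against 7 to 28. The part of either in the results was not tested, and the values they move by over 1.5 times are given with and without them.

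Of the 9 genes, 8 had enough reads to be tested, and each of the 8 was called higher in liver. A call needed an FDR (the Benjamini-Hochberg adjusted p of edgeR's quasi-likelihood test) no higher than 0.05 together with a log2 fold change of 2 or more. Over all 16275 genes tested, 11.2% were called higher in liver and 11.1% higher in backfat. In each of the 8, every liver library lay above every backfat library, which held for 19.7% of all genes tested. Because the filter asks for about 0.206 CPM before TMM in 5 libraries, ABCB11, SLC51B, ABCG8 and CFTR passed it through liver alone and could only be found higher there. SLC10A1, ABCC2, ABCC3 and ABCG5 exceeded that level in all 5 backfat libraries too, and these could have been called either way. ABCG5 was nearest to it, with 0.227 CPM before TMM in backfat 69. In bulk tissue, fewer cells of a type and less RNA per cell cannot be told apart.

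**Figure D1:**
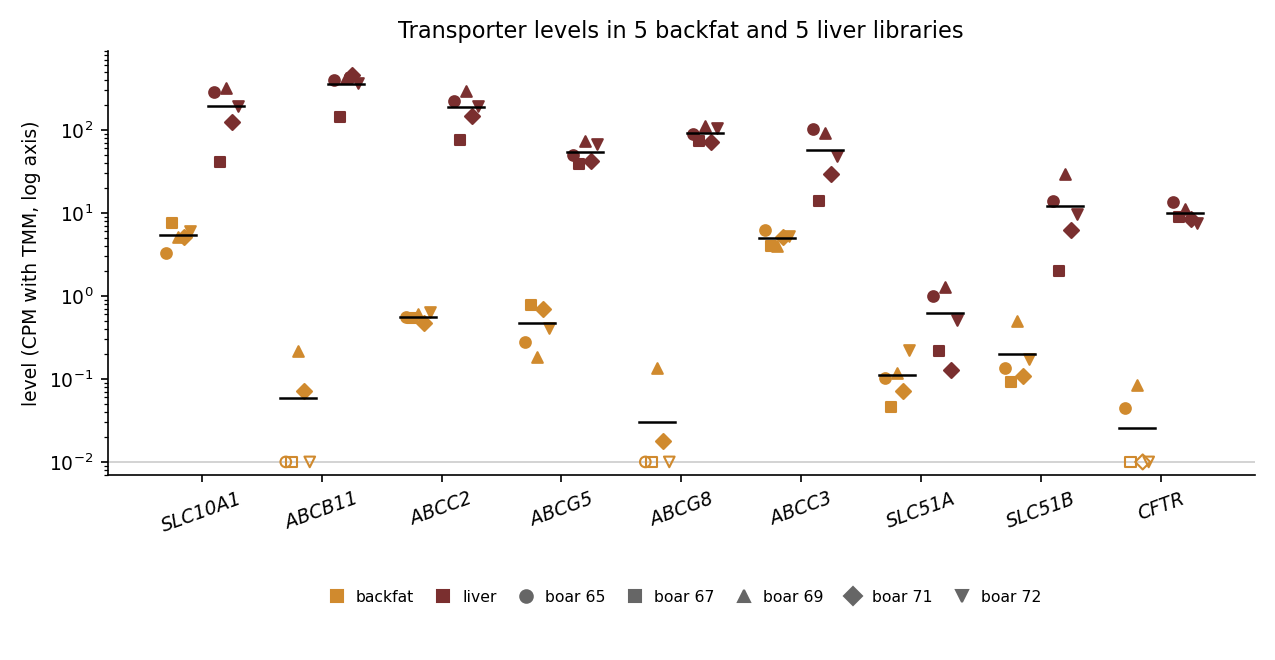
Level of each transporter in the 5 backfat and 5 liver libraries, in CPM with TMM on a log axis. Each point is a library, its shape gives the boar, the black line is the mean of the 5, and open points on the bottom line are libraries with 0 counts. The tissues are apart for every gene except SLC51A, and SLC10A1 and ABCC3 have the highest backfat levels (means of 5.45 and 4.93 CPM). Gene length is not taken into account, so heights are to be compared within a gene.

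SLC10A1 encodes the sodium-dependent carrier that takes conjugated bile acids up from blood into the hepatocyte. It lies at chr7:93400037-93421989 on the minus strand of Sscrofa11.1 and has 5 exons in the RefSeq annotation. In backfat its level was 3.27 CPM in boar 65, 7.60 in 67, 5.11 in 69, 5.17 in 71 and 6.11 in 72, from 287 to 498 counts. In liver it was 290 CPM in boar 65, 41.5 in 67, 317 in 69, 125 in 71 and 193 in 72. The lowest liver was thus above the highest backfat library, and the backfat reads were in every animal. The log2 fold change was 5.15 (SE 0.51, FDR 3.47e-06), and backfat held 2.65% of the mean liver level in boar 69 and a mean of 2.86% in the other boars. Without liver 67 the log2 fold change was 5.43.

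Reads of SLC10A1 were present in each backfat library, among them backfat 69, which had the highest hepatocyte marker sum. Backfat 69, with 5.11 CPM, was below the mean of 5.54 CPM of the other 4 backfat libraries. Hepatocyte markers other than APOA1 and CYP2E1, which have many backfat reads in each boar, reached 0.144% of their liver mean in backfat 69 and 0.00344% in the other backfat libraries. The source of the backfat reads of SLC10A1 was not tested.

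ABCB11 encodes the bile salt export pump, the canalicular ATP-driven pump that moves bile acids into bile. It lies at chr15:75402296-75487092 on the minus strand and has 29 exons. In liver it had 398 CPM in boar 65, 143 in 67, 426 in 69, 459 in 71 and 363 in 72. In backfat there were 0 counts in boars 65, 67 and 72, 13 counts (0.219 CPM) in boar 69 and 4 counts (0.0721 CPM) in boar 71. A count of 0 allows up to 3 counts, which was 0.0338 to 0.0541 CPM per backfat library, for counting error only.

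The log2 fold change of ABCB11 was 12.64 (SE 0.91, FDR 2.07e-07), the largest of the 8, but its size rests on 17 backfat counts. Most of them were in backfat 69, the backfat library with the highest hepatocyte marker sum, where ABCB11 reached 0.0611% of its liver mean. Without that library the log2 fold change was 14.30.

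ABCC2 encodes the canalicular exporter of conjugated bilirubin, glutathione conjugates and other organic anions. It lies at chr14:110955698-111038898 on the plus strand and has 33 exons. Its backfat level was nearly the same in each boar, at 0.553 CPM in 65, 0.549 in 67, 0.606 in 69, 0.469 in 71 and 0.635 in 72, from 26 to 49 counts. In liver it was 226 CPM in boar 65, 75.1 in 67, 293 in 69, 149 in 71 and 195 in 72. Backfat varied less than liver, with a coefficient of variation of 11.3% against 43.6%. The log2 fold change was 8.38 (SE 0.40, FDR 1.1e-08). Unlike for ABCB11, backfat 69 did not stand out, with 0.323% of the liver mean against 0.294% in the other boars.

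ABCG5 and ABCG8 encode the partners of the canalicular sterol exporter, which sends cholesterol and plant sterols into bile. The genes lie head to head on chromosome 3, ABCG8 at chr3:96596975-96616224 on the minus strand and ABCG5 at chr3:96616304-96656893 on the plus strand, each with 13 exons. Only 79 bp separate their annotated starts, and 845 pairs of divergent coding genes in the RefSeq annotation start within 1000 bp of each other, 307 of them within 79 bp. The whole of this shared upstream region, chr3:96616225-96616303 of Sscrofa11.1, is printed on the plus strand, read from the start of ABCG8 to the start of ABCG5. Capitals mark a GC box, which reads GGGCGG on the other strand, and the GATA motif AGATAA, at bases 7 to 12 and 70 to 75.
ABCG8-ABCG5 region: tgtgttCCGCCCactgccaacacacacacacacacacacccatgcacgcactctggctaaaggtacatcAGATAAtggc
It holds 53.2% G and C and 2 CpG sites.

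In CPM, ABCG8 was above ABCG5 in each liver and below it in each backfat library. In liver ABCG5 had 49.4 CPM in boar 65, 39.0 in 67, 72.8 in 69, 42.1 in 71 and 68.6 in 72. ABCG8 had 88.8 CPM in boar 65, 74.6 in 67, 112 in 69, 72.1 in 71 and 106 in 72, so liver 67 was among the lower livers without being far from the rest. Per kb of counted exon, ABCG8 was 1.42 to 1.78 times ABCG5 in the 5 livers. The counted exon length was 5684 bp for ABCG8 and 5283 bp for ABCG5. The RefSeq exons cover 3744 and 5210 bp, so the size of this ratio depends on the annotation. This ratio held within a narrow range although the level of each gene moved by a factor of 1.87 (ABCG5) and 1.55 (ABCG8) between the lowest and the highest liver.

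In backfat ABCG5 had reads in every library, at 0.282 CPM in boar 65, 0.778 in 67, 0.185 in 69, 0.703 in 71 and 0.412 in 72, or 11 to 51 counts. ABCG8 had 0 counts in boars 65, 67 and 72, 8 counts (0.135 CPM) in boar 69 and 1 count (0.018 CPM) in boar 71. Most of the ABCG8 reads were thus in the library with the highest hepatocyte marker sum, and the same library had the lowest ABCG5. The log2 fold changes were 6.85 for ABCG5 (SE 0.41, FDR 5.27e-08) and 11.54 for ABCG8 (SE 0.64, FDR 2.93e-08). Without backfat 69 the value for ABCG8 was 13.83. The ratio between the partners was not tested across tissues, since ABCG8 was below 5 counts in 4 backfat libraries.

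ABCG5 shares ground with another gene. DYNC2LI1, a light intermediate chain of the cilium's dynein motor, overlaps its exons by 499 bp on the opposite strand, and the counts were made without strand. With the options in the header of the count table, a read that overlaps exons of both genes is assigned to neither. DYNC2LI1 had 13.4 ± 2.67 CPM in backfat and 6.44 ± 1.14 CPM in liver (SD, n = 5). Its part in the backfat reads of ABCG5 was not tested.

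ABCC3 encodes a basolateral exporter that returns conjugates of bilirubin and bile acids to the blood, and is made in many epithelia. It lies at chr12:26920764-26978389 on the plus strand and has 33 exons, of which 177 bp overlap ANKRD40 on the other strand. In backfat it had 6.25 CPM in boar 65, 4.01 in 67, 3.99 in 69, 5.12 in 71 and 5.28 in 72, from 237 to 554 counts. In liver it had 104 CPM in boar 65, 14.0 in 67, 91.7 in 69, 29.6 in 71 and 48.9 in 72. The log2 fold change of 3.55 (SE 0.48, FDR 4.27e-05) was the smallest of the 8, at 3.82 without liver 67, and the lowest liver, 67, was 2.25 times the highest backfat library. ANKRD40, an ankyrin repeat protein, had 46.0 ± 2.11 CPM in backfat and 38.5 ± 4.09 CPM in liver (SD, n = 5), and its part in the ABCC3 counts was not tested.

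**Figure D2:**
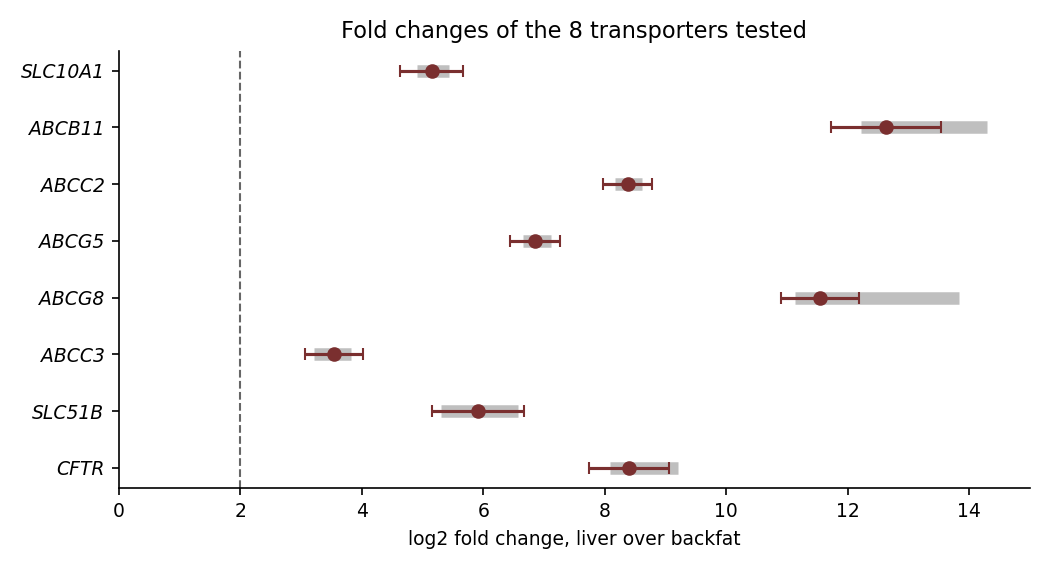
Log2 fold change (liver over backfat) of the 8 transporters tested, with bars of 1 standard error. Grey bands span the values obtained by leaving out each library in turn, and the dashed line is the threshold of 2. The bands of ABCB11 and ABCG8 reach 14.30 and 13.83, the values without backfat 69, and ABCC3 lies nearest the threshold at 3.55.

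The balance between the basolateral and the canalicular organic anion exporter differed between the tissues. Per kb, ABCC3 was 7.56 to 12.98 times ABCC2 in the backfat libraries and 0.215 to 0.528 times ABCC2 in the livers. The mean log2 ratio of their counts was 3.10 ± 0.35 in backfat and -1.91 ± 0.53 in liver (SD, n = 5), which do not overlap. The difference of -5.01 had p = 0.00794 in a two-sided exact permutation test, the smallest p that 5 against 5 libraries can give. It was in the same direction in the 5 boars, at -4.38 to -5.76 within a boar, and flipping the signs of these 5 differences, as an exact test of the pairs, gave p = 0.0625, the smallest p that 5 pairs can give. Of the 4 pairs considered, this was the only pair with at least 5 counts of each gene in every library. A ratio of genes in the same library does not depend on how libraries are scaled.

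SLC51A and SLC51B encode the partners of the basolateral organic solute exporter, which works as a pair and also returns bile acids from the gut wall to portal blood. SLC51A lies at chr13:133851775-133869753 on the minus strand with 8 exons, and SLC51B at chr1:163081145-163089491 on the plus strand with 4 exons. In liver SLC51B had 13.9 CPM in boar 65, 1.998 in 67, 29.3 in 69, 6.29 in 71 and 9.76 in 72. In backfat it had 0.135 CPM in boar 65, 0.0915 in 67, 0.505 in 69, 0.108 in 71 and 0.172 in 72, from 6 to 30 counts. Backfat 69 was the highest of its tissue and still below liver 67, the lowest of the livers.

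The log2 fold change of SLC51B was 5.92 (SE 0.76, FDR 2.94e-05). It was 6.56 without backfat 69, 5.30 without liver 69 and 6.24 without liver 67. Its exons overlap those of RASL12, a Ras-like GTPase on the other strand, by 52 bp, and RASL12 had 5.28 ± 3.12 CPM in backfat and 11.9 ± 1.76 CPM in liver (SD, n = 5).

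SLC51A was near the limit of detection in both tissues. In liver it had 40, 8, 60, 4 and 19 counts in boars 65, 67, 69, 71 and 72, or 0.126 to 1.27 CPM. In backfat it had 9, 3, 7, 4 and 13 counts, or 0.0458 to 0.223 CPM. The tissues overlapped, since livers 67 and 71 were below backfat 72, and the gene did not pass the filter. In the 10 alternative fits that kept SLC51A it was called higher in liver, with a log2 fold change of 2.27 to 2.76 and an FDR of 0.000582 to 0.0188. In those that leave out a library, it passed the filter through the libraries where it was highest, livers 65, 69 and 72 and backfat 72. The fits share most of their libraries, so their calls are not independent.

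The partners of the solute exporter had unlike RNA levels. Per kb, SLC51B was 14.6 to 78.4 times SLC51A in the livers and 1.21 to 6.75 times in backfat, and no liver ratio was as low as a backfat one. The highest liver ratio was in boar 71 with 4 counts of SLC51A, so its size is uncertain, and the difference was not tested for that reason. The counted exon length was 1482 bp for SLC51A, whereas the RefSeq exons cover 2746 bp, and for SLC51B the lengths were 941 and 1085 bp. Reads that lie outside the counted exons would not be in these values.

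**Figure D3:**
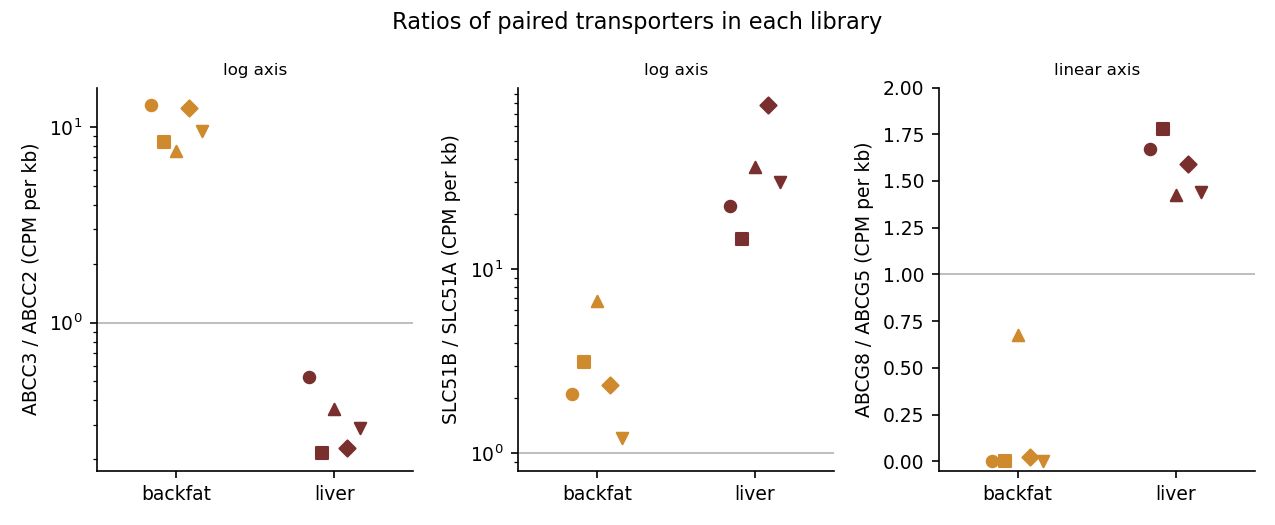
Ratio of the levels per kb of ABCC3 to ABCC2, SLC51B to SLC51A and ABCG8 to ABCG5 in each library, with log axes for the first 2 panels and a linear axis for the third. Each point is a library and its shape gives the boar as in the plot of levels. ABCC3 exceeds ABCC2 in each backfat library and lies below it in each liver, and the ABCG8 to ABCG5 ratio keeps to 1.42 to 1.78 in liver.

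CFTR encodes the chloride channel of the apical face of cholangiocytes, which hepatocytes are known to lack. It lies at chr18:28627717-28818209 on the minus strand and has 27 exons. In liver it had 13.4 CPM in boar 65, 8.88 in 67, 11.3 in 69, 8.56 in 71 and 7.54 in 72. In backfat it had 4 counts in boar 65, 5 in boar 69 and 0 in boars 67, 71 and 72, so the tissues were far apart. The log2 fold change was 8.40 (SE 0.66, FDR 4.14e-07), and 9.21 without backfat 69. CFTR was the only one of the 9 genes whose level in liver 67 was above that in liver 72, and liver 67 had 0.871 times the mean of the other livers.

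Cholangiocyte markers were present in liver beside CFTR. Of 9 such markers tested, 6 were called higher in liver, among them KRT7, EPCAM, SOX9, SCTR and PKHD1, with a median log2 fold change of 4.21 over the list. Over all genes tested, 11.2% were called higher in liver. After TMM, none of these 6 exceeded the filter level in every backfat library, and SCTR, PKHD1 and KRT7 entered the test through liver alone. SCTR, the secretin receptor, had 2.83 ± 0.53 CPM in liver (SD, n = 5) and 0 counts in every backfat library, which makes it at least 60.1-fold higher with 3 counts allowed per library. With TMM, the sum of the list in liver 67 was 0.807 times the mean of the other livers, while the hepatocyte sum was 0.283 times. Most of the list's mean sum in liver was CLDN4, so the ratio of 0.807 says little of the other markers. SPP1, CLDN4 and CDH6 were not called, and CDH6 was lower in liver (log2 fold change -1.11, FDR 0.0412). The list's sum was 139 to 255 CPM of all counts in liver and 99.7 to 214 CPM in backfat. CLDN4 had 155 ± 59.4 CPM in liver and 102 ± 48.7 CPM in backfat (SD, n = 5, with TMM).

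Markers of other epithelia, where SLC51A, SLC51B, ABCC3 and CFTR are also known to be made, were looked at as well. Of 7 kidney and gut markers 4 were tested and VIL1 and CDX2 were called higher in liver, beside 11.2% of all genes tested. CDX2, with a mean of 0.00915 CPM in backfat, entered the test through liver alone and could only be called there. SLC12A1 was lower in liver without being called (-1.33, FDR 0.0102) and LGALS4 was at -0.13 (FDR 0.828). The sum of the list was 18.0 to 56.6 CPM of all counts in liver and 2.87 to 6.51 CPM in backfat, and VIL1 alone had 39.5 ± 26.2 CPM in liver (SD, n = 5). UMOD, which defines kidney tubule, had 2 counts in all backfat libraries and 0 in liver, and FABP2, which defines small intestine, had 4 and 7. The skin list summed to 7.19 to 14.6 CPM in liver and 7.51 to 9.55 CPM in backfat. TP63, of skin's basal layer, was called higher in liver, while KRT1 had 3 counts in backfat and 0 in liver. With a mean of 0.0303 CPM in backfat, TP63 also entered the test through liver alone and could only be called there. The part of such cells in the results was not tested.

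The livers differed from each other more in some transporters than in others. The highest liver was 14.7 times the lowest for SLC51B, 7.63 times for SLC10A1 and 7.40 times for ABCC3. SLC51A, at a few counts, spanned 10.1 times. The span was 3.90 times for ABCC2, 3.21 times for ABCB11, 1.87 times for ABCG5, 1.78 times for CFTR and 1.55 times for ABCG8. Much of this spread was that of liver 67, and among the other 4 livers the span was 4.66 times for SLC51B, 3.51 for ABCC3, 2.53 for SLC10A1, 1.96 for ABCC2 and 1.26 for ABCB11. SLC51A still spanned 10.1 times without it. Over all genes tested the median coefficient of variation among livers was 33.0%. SLC51B (85.6%), SLC51A (79.4%), ABCC3 (67.6%), SLC10A1 (59.1%), ABCC2 (43.6%) and ABCB11 (35.0%) were above it, and ABCG5 (28.3%), CFTR (24.0%) and ABCG8 (19.8%) below. Without liver 67 the median was 26.1% and ABCB11, at 9.92%, lay below it, while SLC51A (69.9%), SLC51B (68.4%), ABCC3 (51.2%), SLC10A1 (38.2%) and ABCC2 (28.0%) were above.

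Liver 67 was the lowest of the 5 for 6 of the 9 genes, and liver 69 the highest for 6. Without TMM, liver 67 was the lowest for 5, and with the mitochondrial genes removed for 7. Over all genes tested, liver 67 was the lowest for 28.5% and the highest for 32.6%, and liver 69 was the highest for 21.5%. The level in liver 67 over the mean of the other 4 was 0.135 for SLC51B, 0.179 for SLC10A1, 0.205 for ABCC3, 0.347 for ABCB11 and 0.348 for ABCC2. It was 0.670 for ABCG5, 0.788 for ABCG8 and 0.871 for CFTR, and the median over all genes tested was 0.984. With the mitochondrial genes removed before scaling these ratios moved little, to 0.134 for SLC51B, 0.178 for SLC10A1 and 0.779 for ABCG8.

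**Figure D4:**
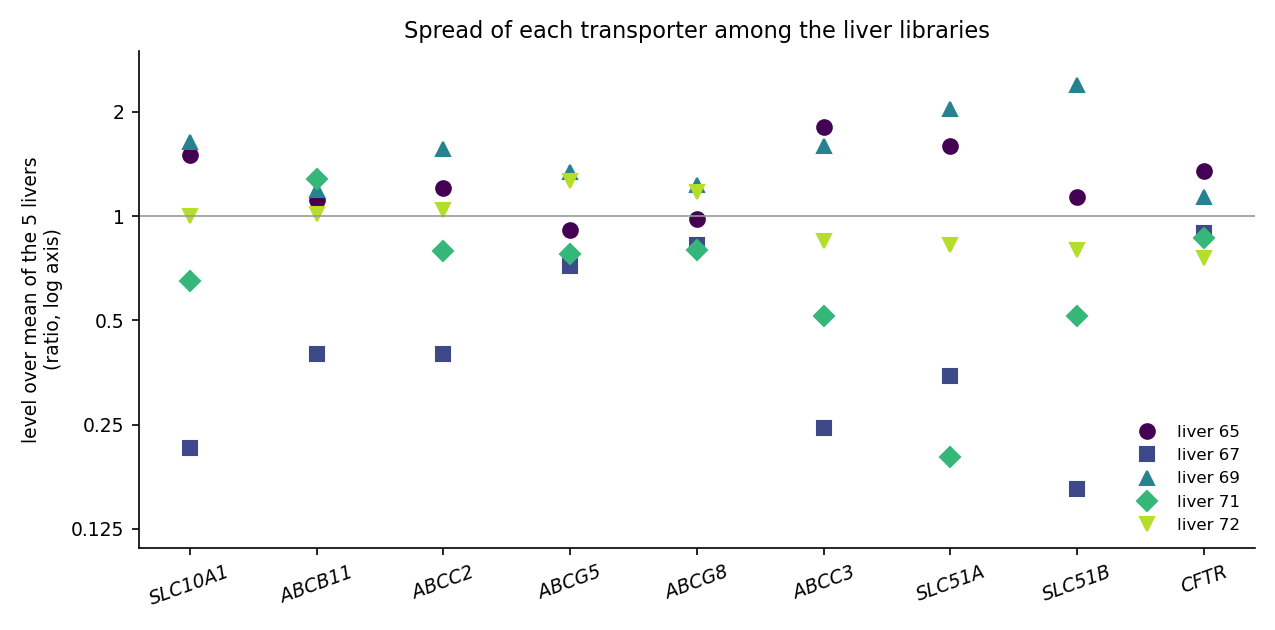
Level of each transporter in each liver library over the mean of the 5 livers, on a log axis (base 2). Liver 67 lies lowest for SLC10A1, ABCB11, ABCC2, ABCC3 and SLC51B, while the livers lie close together for ABCG5, ABCG8 and CFTR (highest over lowest 1.87, 1.55 and 1.78).

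Per kb of counted exon, the order of mean levels in liver was ABCB11 at 38.8 ± 13.6 CPM per kb, SLC10A1 at 32.8 ± 19.4, ABCC2 at 24.7 ± 10.8, ABCG8 at 16.0 ± 3.15, SLC51B at 13.02 ± 11.14, ABCG5 at 10.3 ± 2.92, ABCC3 at 8.70 ± 5.88, CFTR at 1.43 ± 0.34 and SLC51A at 0.422 ± 0.335 (SD, n = 5). Neighbours from ABCB11 to ABCC3 were not apart beyond their spread, since their ranges overlapped and their order was reversed in 1 to 3 of the livers. ABCC3 was above CFTR, and CFTR above SLC51A, in each of the 5 livers, with ranges that did not overlap. The order of the means was the same without liver 67, with ABCB11 at 44.6 and SLC10A1 at 39.3 CPM per kb. It depends on the annotation, since counted and RefSeq exon lengths differ. They were 9232 and 5931 bp for ABCB11, 5884 and 3453 bp for SLC10A1, 7609 and 10185 bp for ABCC2, and 5684 and 3744 bp for ABCG8. ABCB11 was above 92.9% of all genes tested in liver and CFTR above 38.8%. In backfat the order was led by SLC10A1 at 0.927 ± 0.268 CPM per kb and ABCC3 at 0.744 ± 0.144, above 32.0% and 29.2% of all genes tested there.

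**Figure D5:**
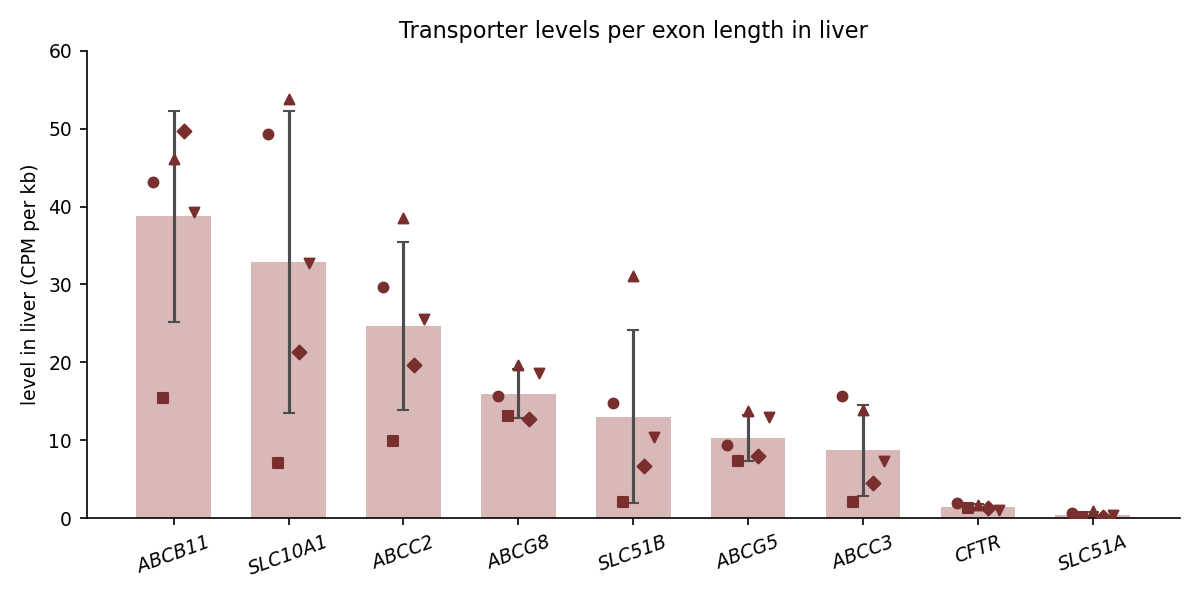
Level of each transporter in liver per kb of counted exon length. Bars are means of 5 livers from 0, error bars are SD and points are libraries with the boar shapes of the plot of levels. The first 7 genes overlap with their neighbours, and CFTR (1.43 CPM per kb) and SLC51A (0.422 CPM per kb) lie below.

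Genes that work with the transporters were counted from lists of bile formation. Of 12 further transporters of liver with an identifier, 10 were tested and 7 were called higher in liver and none in backfat, beside 11.2% and 11.1% of all genes tested, with a median log2 fold change of 4.77. AQP8 and SLC27A5 entered the test through liver alone and could only be called there, and of the 8 that exceeded the filter level in every backfat library 5 were called higher in liver. AQP8, a water channel of the canaliculus, had 1.64 ± 0.85 CPM in liver (SD, n = 5) and 0 counts in every backfat library, at least 34.7-fold higher with 3 counts allowed per library. ABCC6, a basolateral ATP-driven transporter, had a log2 fold change of 8.71 (SE 0.33, FDR 1.82e-09). The smallest changes were in SLC4A2, the chloride and bicarbonate exchanger, at 0.15 (SE 0.27, FDR 0.667), and TMEM30A, the subunit of phospholipid flippases, at -0.55 (SE 0.23, FDR 0.0558).

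Of 12 regulators of bile acid metabolism, all tested, 8 were called higher in liver and none in backfat, beside 11.2% and 11.1% of all genes tested. Their median log2 fold change was 5.30. After TMM, 7 of these 12 exceeded the filter level in every backfat library, and 3 of the 7 were called higher in liver. The other 5 did not exceed it in every one, and NR1H4 and NR0B2 among them entered the test through liver alone. NR1H4, the nuclear bile acid receptor, had 77.8 ± 11.3 CPM in liver against 0.00673 ± 0.0150 CPM in backfat (SD, n = 5), a log2 fold change of 13.15 (SE 0.45). Its backfat level rests on 2 counts in 1 library, and the ratio of the summed levels was 12922 with a 95% exact binomial interval of 3577 to 106709, for counting error only. NR0B2, the repressor that this receptor induces, had a log2 fold change of 10.10 (SE 0.58, FDR 3.71e-08). NR1H2, a receptor for oxysterols found in most tissues, was at 0.03 (SE 0.14, FDR 0.861). RXRA, the shared partner of these receptors, was at 1.33 (SE 0.19, FDR 8.62e-05), below the threshold of fold.

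The machinery that places the pumps at the canaliculus gave another picture. Of 10 scaffold and trafficking genes, all tested, 3 were called higher in liver and none in backfat, beside 11.2% and 11.1% of all genes tested. Their median log2 fold change was 0.62, while the median of all genes tested was at -0.0001. Each of the 10 exceeded the filter level in every backfat library. PDZK1, a scaffold of apical transporters, was at 5.32 (SE 0.56, FDR 5.32e-06), and MYO5B, the motor of apical recycling vesicles, at 3.88 (SE 0.37, FDR 2.45e-06). EZR (ezrin) and RDX (radixin), which link membrane proteins to actin, were at -0.05 (SE 0.20, FDR 0.841) and 0.10 (SE 0.30, FDR 0.798). Over all 3 lists 18 genes were called higher in liver.

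Sequence upstream of the transporter genes was searched for 7 short motifs, on both strands, in the 250 bp before the RefSeq start of Sscrofa11.1. The share of all 19556 coding promoters that hold each is given beside the count. The GATA motif AGATAA was found upstream of SLC10A1, ABCC2, ABCG5 and ABCG8, with 8.08% of all promoters, and the last pair share the same match. The GC box GGGCGG was found upstream of SLC51A, ABCC3, ABCG5 and ABCG8 (45.9% of all promoters), and TATAAA upstream of SLC10A1 and SLC51B (9.77%). No match was found in the 9 windows for AGGTCA (12.2%), GTTAAT (5.9%), TGTTTAC (2.28%) and TTGCNNAA (8.22%). A match here is a run of letters and not a bound site. The windows of SLC10A1 and ABCC2, the hepatocyte transporters with the GATA motif outside the ABCG5 and ABCG8 pair, are printed 5′ to 3′ on the strand of the gene up to the base before the start, with the motifs in capitals.
SLC10A1, chr7:93421990-93422239, minus strand: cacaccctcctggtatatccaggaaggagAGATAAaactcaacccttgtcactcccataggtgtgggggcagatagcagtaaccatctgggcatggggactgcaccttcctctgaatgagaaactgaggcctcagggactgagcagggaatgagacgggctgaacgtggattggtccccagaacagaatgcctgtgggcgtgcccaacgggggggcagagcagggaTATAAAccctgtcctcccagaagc
ABCC2, chr14:110955448-110955697, plus strand: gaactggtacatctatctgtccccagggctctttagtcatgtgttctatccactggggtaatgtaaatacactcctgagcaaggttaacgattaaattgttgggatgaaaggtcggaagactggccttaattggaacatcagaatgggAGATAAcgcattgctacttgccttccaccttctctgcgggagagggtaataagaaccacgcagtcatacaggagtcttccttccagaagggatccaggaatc
In SLC10A1 AGATAA lies 221 to 216 bases and TATAAA 24 to 19 bases before the start, and in ABCC2 AGATAA lies 102 to 97 bases before it. The windows hold 56.4% and 46.4% G and C, against a median of 57.6% over all promoters.

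For the 4 transporters with the nearest matches, the genes most like each were taken by the smallest root mean square difference of centred log2 CPM over the 10 libraries. Among the nearest to ABCC3 were ENTPD5 (0.285) and GPAM (0.318). ABCC2 was nearest to SERPINA1 (0.311), ABCC6 (0.316) and LEAP2 (0.334). CFTR was nearest to TNFSF14 (0.328), ANKS4B (0.368) and WWC1 (0.380), and ABCG8 to PLA2G12B (0.340), SLC17A1 (0.348) and NR1H4 (0.371). The measure takes in the difference between the tissues as well as that among libraries of a tissue, and the genes named here had log2 fold changes of 3.15 to 13.15.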

How the data were processed

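Backfat and liver of 5 boars were sequenced by poly(A) RNA-seq and by whole-genome bisulfite sequencing. The bisulfite files hold cytosine calls by read position with no gene and were not used. The authors trimmed reads with Trimmomatic, aligned them with HISAT2 to Sscrofa11.1 and, per the file headers, made raw counts per gene with featureCounts 2.0.1 and Ensembl release 99, for paired reads and without strand. From the deposited counts, edgeR 4.0.16 (R 4.3.3) was used for filterByExpr by tissue, TMM scaling, a quasi-likelihood fit (glmQLFit) of tissue alone, its test (glmQLFTest) and Benjamini-Hochberg adjustment over 16275 genes. The study used DESeq2, and DESeq2 1.42.0 and limma 3.58.1 (voom) were run as alternatives, with other normalizations, filters, glmTreat, removal of mitochondrial genes, a block for the boar and each library left out. SE is the log2 fold change over the root of F.

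Column names give the same 5 boar numbers in both tissues. Deviations from the tissue mean correlated at 0.238, 0.107, 0.049, 0.165 and 0.0984 in boars 65, 67, 69, 71 and 72. Backfat 69 correlated best with liver 72, and the other backfat libraries with the liver of the same number. The numbers were taken to pair the libraries by animal, from the names. Symbols were matched to identifiers through a table of Ensembl identifiers and symbols, and positions and sequence are from the RefSeq annotation of Sscrofa11.1. Members, lists and tests were chosen with earlier results of these data known. Named were every member, the 2 largest and 2 smallest changes per pathway list, and the 3 nearest genes of 4 members; some of these genes are not reported here. Marker sums printed in CPM of all counts are without TMM, while ratios of such sums to other livers and percentages of their liver mean are with TMM. The p-values measure the spread between these libraries, and limits on 0 counts cover counting error only. Fits were tested on simulated counts.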

Additional observations from a re-analysis of the deposited data

Results flagged for a closer look

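In groups of 5 libraries, a library was singled out when its gap to the nearest other library, divided by the range, exceeded Dixon's critical value of 0.71. Of 24 groups examined 3 did so, and each was backfat 69. The 1 in 20 of the critical value holds for independent groups with a normal spread. These groups share libraries and some hold few counts, so 3 of 24 cannot be set against it. SLC51B had 0.505 CPM in backfat 69 against 0.0915 to 0.172 CPM in the other backfat libraries. ABCG8 had 0.135 CPM there (8 counts) against 0 to 0.018 CPM. The sum of the hepatocyte markers, most of it APOA1, was 780 CPM of all counts there, against 215 to 312 CPM.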

How the results depend on the processing

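Every log2 fold change of the 8 transporters tested kept its direction and its call in each alternative that tested it. Where each library had to hold 10 counts of a gene, 4 transporters could be tested (SLC10A1, ABCC2, ABCC3 and ABCG5) and 4 were called higher in liver, against 8, because fewer genes enter, and 12 pathway genes, against 18. SLC51A was kept, and called, with no filter, with DESeq2, with the mitochondrial genes removed, in 6 of the fits that leave out a library and in the fit without backfat 69 and liver 67, a setting chosen after seeing the data. Leaving out each library in turn gave 8 to 9 transporters and 18 pathway genes called higher in liver, and 0 of either higher in backfat. With library size alone the median over all genes, on the log2 scale, fell by 0.71, the transporters ranged from 2.92 to 11.96, and 1 pathway gene (KLB) was called higher in backfat, against 0. With glmTreat 17 pathway genes were called higher in liver. By limma-voom, ABCB11 was at 13.80 and ABCG8 at 12.35.

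The replicate block, which pairs the libraries by boar, changed no call of a transporter or pathway gene (the same 8 and the same 18 were called with and without it). For ABCC3 over ABCC2 the paired difference was -5.01 with an exact p = 0.0625, which 5 pairs cannot lower. The same difference ranged from -5.21 to -4.88 with each library left out (exact permutation p = 0.0159 each). Genes with a few backfat counts are limited by depth: the fold changes of ABCB11, ABCG8 and CFTR rest on 17, 9 and 9 counts.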

Other observations

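Some transporters and some regulators of bile acid transport shared an order of the livers. SLC10A1, SLC51B and ABCC2 had the same order of livers, from the highest: 69, 65, 72, 71 and 67. This order (CPM with TMM), singled out after the values were seen, was that of 4.99% of all genes tested. It was also the order of the hepatocyte marker sum, at 117636, 109929, 104351, 81508 and 26375 CPM of all counts, and the reverse of the order of the mitochondrial share, at 6.38%, 6.97%, 11.9%, 20.2% and 44.5%, and their part in it was not tested. Regulators that had it too included NR1I3, a nuclear receptor for drugs and bilirubin, and FGFR4 and KLB, which together form the receptor of the gut hormone that signals bile acid return. NR1I3 spanned 5.48 times from the lowest to the highest liver, at 16.9 CPM in boar 65, 3.62 in 67, 19.8 in 69, 5.81 in 71 and 9.30 in 72. NR1H4, the nuclear bile acid receptor, spanned 1.39 times, from 64.3 to 89.6 CPM, with its livers in the order of SLC51A. NR0B2 was lowest in liver 65 at 9.53 CPM and highest in liver 71 at 32.2 CPM, so its livers were not in the order of SLC10A1, SLC51B and ABCC2. The other transporters were not in that order either.

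KLB was the regulator with a lower level in liver at an FDR of 0.000269, at 50.5 ± 17.8 CPM against 153 ± 35.4 CPM in backfat (SD, n = 5), a log2 fold change of -1.60 (SE 0.27) that did not reach the threshold of fold. With FGFR4, its partner, the levels went the other way, at 144 ± 48.5 CPM in liver and 2.09 ± 1.10 CPM in backfat (SD, n = 5), a log2 fold change of 6.11 (SE 0.46, FDR 3.06e-07). KLB, FGFR4 and NR1I3 were named after their values were seen.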
